A study of Homo sapiens with 6 samples.

Results

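The JNK and p38 stress kinase cascade was described through 10 genes of the deposited count table, out of 15379 gene symbols. They were the MAP kinases MAPK8, MAPK9 and MAPK14, the MAP kinase kinases MAP2K3, MAP2K4 and MAP2K7, the upper kinases MAP3K1 and MAP3K5, the p38-activated kinase MAPKAPK2 and the JNK scaffold MAPK8IP3. All 10 had a row in the table and passed the filter on low counts. They were chosen by name and role with their values at 41C and 37C known, so every difference between the temperatures in these 10 genes is a description. No p-value is given for them, and the 1 count of calls among them supports nothing. The samples were HaCaT cells, an established line of spontaneously immortalised human keratinocytes. In the treated group (n = 3) cells were held at 41C for 1 h per day on 3 days, and in the control group (n = 3) they were held at 37C on the same daily schedule. No genetic change or other agent is named for either group. The series title concerns heat, the channel TRPV3, calcium and Hedgehog signalling in keratinocytes that act on pigment cells.

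In these cascades a MAP3K phosphorylates a MAP2K, which phosphorylates a MAP kinase on a threonine and a tyrosine. JNK and p38 are switched on by heat, ultraviolet light, osmotic shock and cytokines, mainly through phosphorylation and within minutes, so transcript levels give the supply of the kinases and not their activity. In epidermis both branches are known for roles in inflammation, in stress responses and in differentiation.

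Total counts per library were 20139202 to 20856144 at 41C and 19659112 to 19745664 at 37C. The 10 genes had 195 to 2238 counts in a library, and MAP3K5, with the fewest, had the widest interval. Pairs of libraries had a Pearson's r of 0.992 to 0.995 across genes in log2 CPM. Nothing in the labels says that replicates were separate cultures, so errors and p-values cover the spread of these 6 samples alone, and that spread may be technical. All 10 keratinocyte markers had at least 60 counts over the 6 libraries, with sums of 8820 to 9161 CPM (counts scaled to a common library total) at 41C and 7681 to 8278 CPM at 37C. Of these markers 6 rose and 0 fell (edgeR adjusted p under 0.05, the threshold used throughout), beside 0.821% and 0.265% of all tested genes. Their log2 changes were positive in 8 and negative in 2, and ran from -0.28 to 0.37. Markers of melanocytes summed to 5.09 to 6.21 CPM at 41C and 4.81 to 4.96 CPM at 37C, those of fibroblasts to 15.9 to 18.0 and 13.9 to 16.6 CPM, those of immune cells to 13.5 to 16.97 and 13.9 to 17.7 CPM, and those of endothelium to 18.7 to 22.7 and 20.7 to 30.3 CPM. Of the markers with a row, 2 of 3 for melanocytes and 3 of 5 for fibroblasts had at least 60 counts over the 6 libraries. For immune cells 1 of 4 did, and for endothelium 2 of 3. DCT of melanocytes, LUM and PDGFRA of fibroblasts, PTPRC, CD3E and LYZ of immune cells and PECAM1 of endothelium had fewer. Simple epithelial keratins summed to 4275 to 4559 CPM at 41C and 4053 to 4371 CPM at 37C. The part that the higher sum of keratinocyte markers has in the values below was not tested. In these bulk samples fewer cells of a type and less RNA per cell cannot be told apart.

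Among the 10 transcripts, the scaffold MAPK8IP3 stood below its control level at 41C and the 9 kinases stayed close to theirs. MAPK8IP3 was at 0.769 of its 37C level. The 9 kinases had fold changes of 0.946 to 1.09, and the 95% intervals of these folds all lay between 0.852 and 1.201. Higher at 41C were 8 of the 10, with a median log2 change of 0.06, beside 50.9% and 0.00 over the 12056 genes tested. Past the threshold stood 1 of the 10, lower at 41C, beside 1.09% of all tested genes in either direction (0.821% higher and 0.265% lower). Since the genes were chosen with this comparison known, nothing is read from that count.

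Promoter stretches of 2 genes are shown because they belong to MAPK8IP3, the scaffold with the largest difference, and to JUN, the transcription factor after which the JNK kinases are named and whose transcript rose. Each is the 250 bases before the annotated start, taken from RefSeq on GRCh38.p14 and written 5′ to 3′ on the gene's own strand. Capitals mark matches to the motifs searched for, on both strands: TGANTCA, the AP-1 site, TGACGTCA, the cyclic AMP response element, TGACATCA, the form known from the JUN promoter, and GAANNTTC or TTCNNGAA, the repeats that make up a heat shock element. The MAPK8IP3 stretch is chr16:1705945-1706194 on the plus strand and the JUN stretch is chr1:58784048-58784297 on the minus strand.
MAPK8IP3: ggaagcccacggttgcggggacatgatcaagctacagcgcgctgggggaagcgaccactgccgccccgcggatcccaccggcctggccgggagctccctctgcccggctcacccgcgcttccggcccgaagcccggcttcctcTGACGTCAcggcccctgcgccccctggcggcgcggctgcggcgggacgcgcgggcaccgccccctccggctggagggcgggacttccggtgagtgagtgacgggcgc
JUN: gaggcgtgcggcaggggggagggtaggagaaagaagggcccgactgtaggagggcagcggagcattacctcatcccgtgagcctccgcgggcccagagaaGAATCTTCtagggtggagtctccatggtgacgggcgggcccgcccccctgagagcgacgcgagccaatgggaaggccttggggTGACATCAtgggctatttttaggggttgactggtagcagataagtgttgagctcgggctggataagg

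The MAPK8IP3 stretch held TGACGTCA, whose first base lies at -107 from the start. Of 35116 such stretches over all genes, 1.65% held it. The JUN stretch held TGACATCA, with its first base at -67, and GAATCTTC, a match to GAANNTTC, with its first base at -150. TGACATCA was in 2.38% of all stretches and GAANNTTC in 5.78%. RefSeq stretches were matched for 8 of the 10 genes. Among the other 7, an upstream start of MAP2K3 held TGANTCA, in 6.57% of all stretches, and 1 of the MAPK9 starts held TTCNNGAA, in 6.62%. MAPK8, MAPK14, MAP2K4, MAP2K7 and MAP3K5 held none of the motifs in these stretches. These matches describe letters and not binding.

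The levels of the 10 genes against each other were compared in FPKM, the deposited count scaled to gene length and library total, which the choice of genes did not use. MAP2K3, the kinase that activates p38, had the highest mean with 34.1 ± 1.61 FPKM over the 6 libraries (SD, n = 6), above 83.7% of tested genes. MAPKAPK2 followed with 31.4 ± 2.02 FPKM, and the ranges of both overlapped. MAP2K7 (14.9 ± 0.695), MAPK14 (12.3 ± 0.434) and MAP2K4 (10.4 ± 0.602 FPKM) came next, and each lay above the following gene in every library. MAPK8 (6.21 ± 0.165) and MAPK9 (5.84 ± 0.378 FPKM) had overlapping ranges. MAPK8IP3 (3.35 ± 0.532) and MAP3K1 (3.11 ± 0.220 FPKM) also overlapped over the 6 libraries. MAPK8IP3 was above MAP3K1 in the 3 libraries at 37C and below it in the 3 at 41C. Its SD over the 6 libraries includes its difference between the temperatures, and was 0.210 within 41C and 0.184 within 37C. MAP3K5 was lowest with 1.66 ± 0.153 FPKM, still above 19.7% of tested genes. Among the 10 genes, MAP3K1 and MAP3K5 thus had less transcript per length than the MAP2K and MAP kinase members. In mean CPM, without length, MAPKAPK2 (103.6) was above MAP2K3 (95.3), and MAPK14 (79.8) was above MAP2K7 (52.9). The order of the 10 genes thus rests in part on the lengths the authors used.

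**Figure D1:**
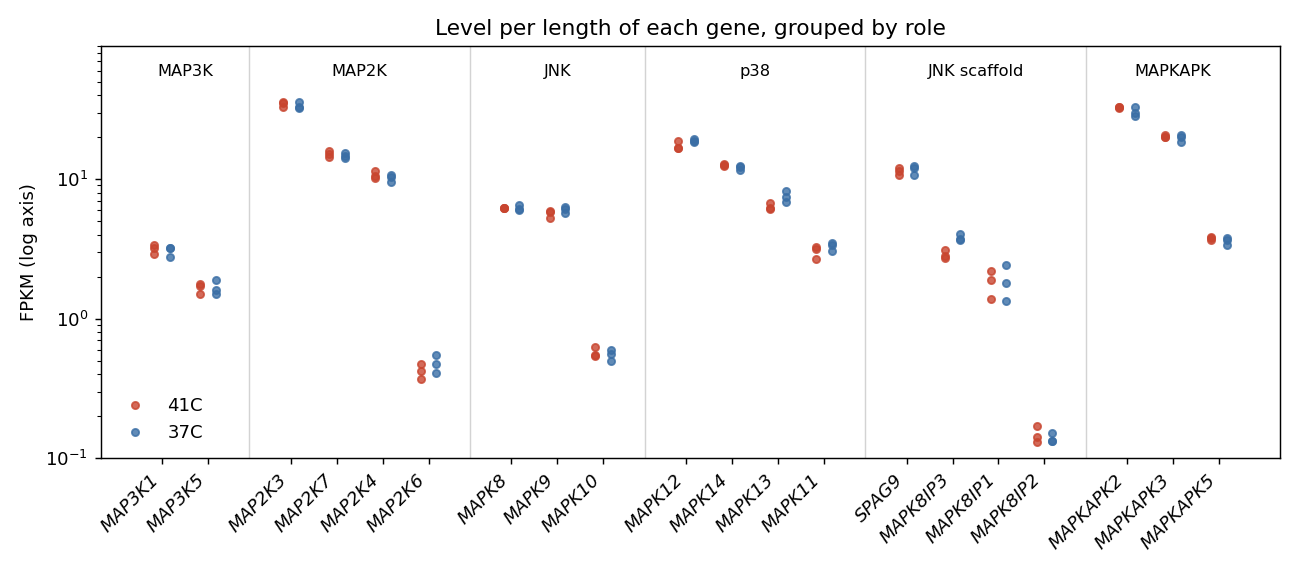
FPKM (log axis) of the 10 genes and of other isoforms with the same role in each library, with 41C in red left of 37C in blue. MAP2K3 is near 34 FPKM and its partner MAP2K6 below 1 FPKM in every library, and MAPK8IP3 is the gene whose red and blue points stand farthest apart among the 10.

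The upper kinases did not separate by temperature. MAP3K1 (ENSG00000095015, chromosome 5), a kinase with a ubiquitin ligase domain that acts on MAP2K4, had 30.4, 32.1 and 28.2 CPM at 41C, against 29.97, 30.2 and 26.2 CPM at 37C. The groups overlapped and the log2 change was 0.07 ± 0.08 (SE here and below). MAP3K5 (ENSG00000197442, chromosome 6), also called ASK1, is held inactive by bound thioredoxin until oxidants release it. It had 11.6, 9.85 and 11.3 CPM at 41C, against 10.3, 12.2 and 9.88 CPM at 37C. Its log2 change was 0.02 ± 0.12, with a 95% interval of the fold from 0.853 to 1.201. The log2 change of MAP3K5 was below 0 without 41C replicate 1 or 3 (-0.03 and -0.01), without 37C replicate 1 or 3 (-0.02 and -0.04) and with upper-quartile scaling (-0.00), so it has no settled direction.

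The MAP2K genes were slightly higher on average at 41C, within the spread of the libraries. MAP2K4 (ENSG00000065559, chromosome 17), which phosphorylates JNK and can phosphorylate p38, had 48.7, 44.99 and 44.1 CPM at 41C, against 45.3, 44.3 and 40.9 CPM at 37C. Its log2 change was 0.08 ± 0.07. MAP2K7 (ENSG00000076984, chromosome 19), which acts on JNK alone, had 51.1, 54.0 and 57.4 CPM at 41C, against 49.1, 53.8 and 51.9 CPM at 37C (log2 change 0.07 ± 0.06). In both genes the groups overlapped. MAP2K7 gave 58.8 ± 2.63% of the FPKM summed over these JNK activators at 41C and 59.0 ± 1.99% at 37C (SD, n = 3 each), so the balance between them moved by less than its spread. MAP2K3 (ENSG00000034152, chromosome 17) had 98.5, 100.1 and 92.5 CPM at 41C, against 89.6, 90.9 and 99.98 CPM at 37C (log2 change 0.05 ± 0.06). Its 37C replicate 3 lay level with the highest 41C library. MAP2K6, the other p38 activator, was low beside it, with 5.34 to 7.84 CPM. MAP2K3 made up 98.3 to 99.0% of their summed FPKM in the 6 libraries. That share rests on gene lengths of 2796 bases for MAP2K3 and 14288 bases for MAP2K6.

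The JNK transcripts were evenly split between MAPK8 and MAPK9. MAPK8 (ENSG00000107643, chromosome 10), which encodes JNK1, had 38.4, 38.9 and 39.3 CPM at 41C, against 39.7, 37.1 and 37.5 CPM at 37C, a log2 change of 0.03 ± 0.06. MAPK9 (ENSG00000050748, chromosome 5), which encodes JNK2, had 40.2, 35.8 and 40.04 CPM at 41C, against 42.7, 41.3 and 38.8 CPM at 37C. It was the 1 kinase of the 9 with a negative log2 change, -0.08 ± 0.07, and the groups overlapped. MAPK8 made up 50.1 ± 1.36% of the summed JNK FPKM at 41C and 48.4 ± 0.729% at 37C (SD, n = 3 each), with overlapping ranges. MAPK10, the JNK3 gene known mainly from neurons, took 3.95 to 5.15% in the 6 libraries.

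MAPK14 (ENSG00000112062, chromosome 6), which encodes p38 alpha, had 81.0, 83.0 and 82.8 CPM at 41C, against 77.5, 79.8 and 74.8 CPM at 37C. Its groups did not overlap, as in 20.0% of all tested genes (11.2% with 41C above), and it was 1 of 2 of the 10 genes with this property. The difference was small, with a log2 change of 0.09 ± 0.05 and a 95% interval of the fold from 0.984 to 1.15. MAPK13, the p38 delta gene, had 41.6, 40.9 and 45.5 CPM at 41C, against 48.9, 54.4 and 45.6 CPM at 37C. Its highest 41C library (45.53 CPM) lay just below its lowest 37C library (45.58 CPM). In 8.84% of all tested genes the 41C group lay below the 37C group without overlap. MAPK13 did not pass the threshold (log2 change -0.22 ± 0.07, edgeR adjusted p = 0.186), though it passed without 37C replicate 3 (-0.27, edgeR adjusted p = 0.00910). MAPK12, the p38 gamma gene, and MAPK11, the p38 beta gene, did not pass either (log2 changes -0.10 ± 0.07 and -0.10 ± 0.13, edgeR adjusted p = 0.601 and 0.776). Of the FPKM summed over the 4 p38 genes, MAPK14 took 32.1 ± 0.698% at 41C and 28.9 ± 0.146% at 37C (SD, n = 3 each). The shares did not overlap. Mean FPKM of MAPK14 was 12.6 at 41C and 12.02 at 37C. It was 17.4 and 18.85 for MAPK12, 6.34 and 7.47 for MAPK13, and 3.03 and 3.305 for MAPK11. All 4 genes enter the shares. MAPK12 took the largest share, 43.2 to 45.9%, on a gene length of 1778 bases, beside 6477 bases for MAPK14. In CPM, without length, MAPK14 was above MAPK12 in every library, so the order of these isoforms rests on the lengths the authors used.

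**Figure D2:**
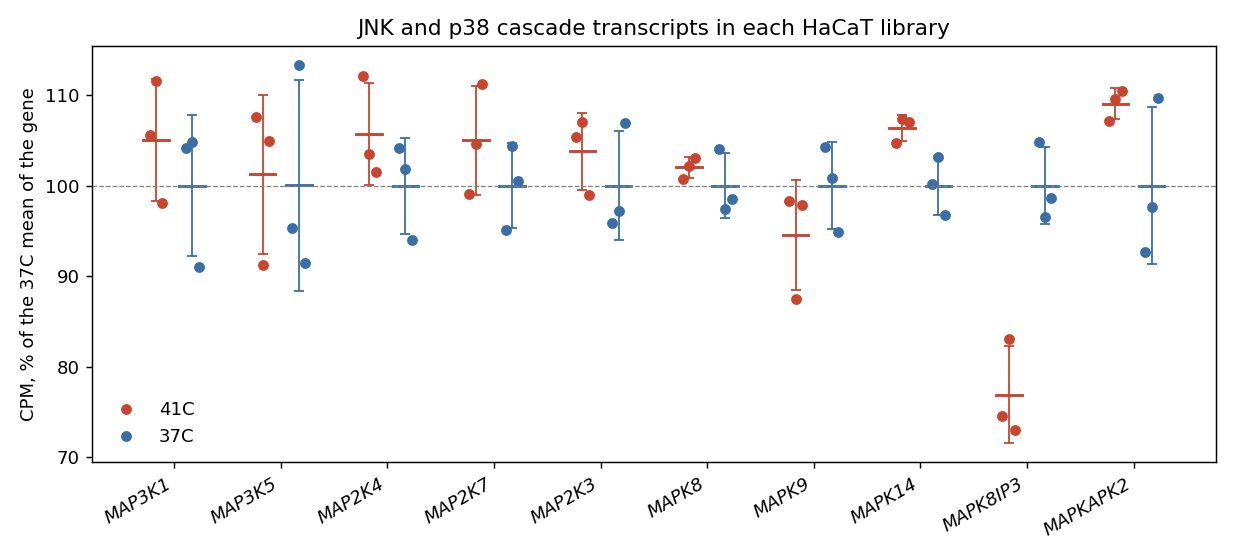
CPM of each gene in each library as a percentage of the gene's 37C mean (dashed line), with 41C in red left of 37C in blue; bars are the mean and SD of 3 libraries. MAPK8IP3 at 41C lies below all of its 37C points, MAPK14 at 41C lies above all of its own, and the groups of the other 8 genes overlap.

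MAPKAPK2 (ENSG00000162889, chromosome 1) is phosphorylated by p38 and in turn phosphorylates the small heat shock protein HSPB1 and the mRNA decay factor ZFP36. It had 106.2, 108.6 and 109.5 CPM at 41C, against 91.9, 96.8 and 108.7 CPM at 37C. The first 2 control libraries lay below every 41C library and 37C replicate 3 lay among them, so the groups overlapped. The log2 change was 0.12 ± 0.06, with 0.20 when 37C replicate 3 was left out and 0.07 when 37C replicate 1 was. Replicate 3 at 37C also had the highest 37C value of MAP2K3 and the lowest of MAP2K4, MAP3K1, MAP3K5, MAPK9 and MAPK14. MAPKAPK2 took 57.6 ± 0.543% of the FPKM summed over the MAPKAPK genes at 41C and 56.4 ± 1.79% at 37C, ahead of MAPKAPK3 and MAPKAPK5, neither of which passed the threshold (log2 changes 0.06 ± 0.06 and 0.08 ± 0.07, edgeR adjusted p = 0.746 and 0.650).

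MAPK8IP3 (ENSG00000138834, chromosome 16), also called JIP3, holds JNK and its upstream kinases together and links cargo to kinesin and dynein motors. It had 434, 478 and 405 counts at 41C, against 583, 533 and 544 counts at 37C. In CPM these were 20.8, 23.2 and 20.4 at 41C, against 29.3, 27.0 and 27.6 at 37C. The highest 41C library lay below the lowest 37C library, as in 8.84% of all tested genes. Means were 21.5 ± 1.51 CPM at 41C and 27.9 ± 1.197 CPM at 37C (SD, n = 3 each). The log2 change was -0.38 ± 0.08, with a 95% interval of the fold from 0.683 to 0.866. Over 16 alternatives the log2 change ran from -0.44, without 41C replicate 2, to -0.31, on the log2(FPKM + 1) scale. GENCODE release 29 places the gene at chr16:1706183-1770317 on GRCh38. Its 3′ end overlaps NME3 on the other strand by 32 bases, and whether the counting used strand is not stated in the labels. NME3 had 8.16, 7.52 and 7.46 CPM at 41C, against 7.28, 6.43 and 8.21 CPM at 37C (log2 change 0.08 ± 0.13, edgeR adjusted p = 0.850).

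No other JNK scaffold of the family passed the threshold, and whether they differed from MAPK8IP3 was not tested. SPAG9, or JIP4, is the closest relative of MAPK8IP3 and the most abundant scaffold of the family, with 105.5, 101.0 and 95.5 CPM at 41C, against 107.8, 104.6 and 93.3 CPM at 37C (log2 change -0.02 ± 0.06, edgeR adjusted p = 0.940). MAPK8IP1 varied more between libraries of 1 group than between groups, with 4.22 to 6.75 CPM at 41C and 4.02 to 7.45 CPM at 37C, and MAPK8IP2 stayed under 1 CPM. The 95% intervals of their log2 changes were wide, -0.53 to 0.50 for MAPK8IP1 and -0.56 to 0.76 for MAPK8IP2, and both include the value of MAPK8IP3. That of SPAG9 ran from -0.15 to 0.11. Of the FPKM summed over these 4 scaffolds, MAPK8IP3 took 17.2, 18.8 and 17.3% at 41C, against 22.4, 20.9 and 22.0% at 37C. SPAG9 took 62.8 to 73.5%. Among the 9606 genes whose mean log2 CPM reached 3, MDM4, ANAPC5 and OLR1 had the log2 CPM most like that of MAPK8IP3 over the 6 libraries, with Pearson's r of 0.997, 0.984 and 0.984. That likeness includes the difference between the groups, and none of these 3 genes passed the threshold (log2 changes -0.21, -0.10 and -0.28, edgeR adjusted p = 0.199, 0.353 and 0.295).

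**Figure D3:**
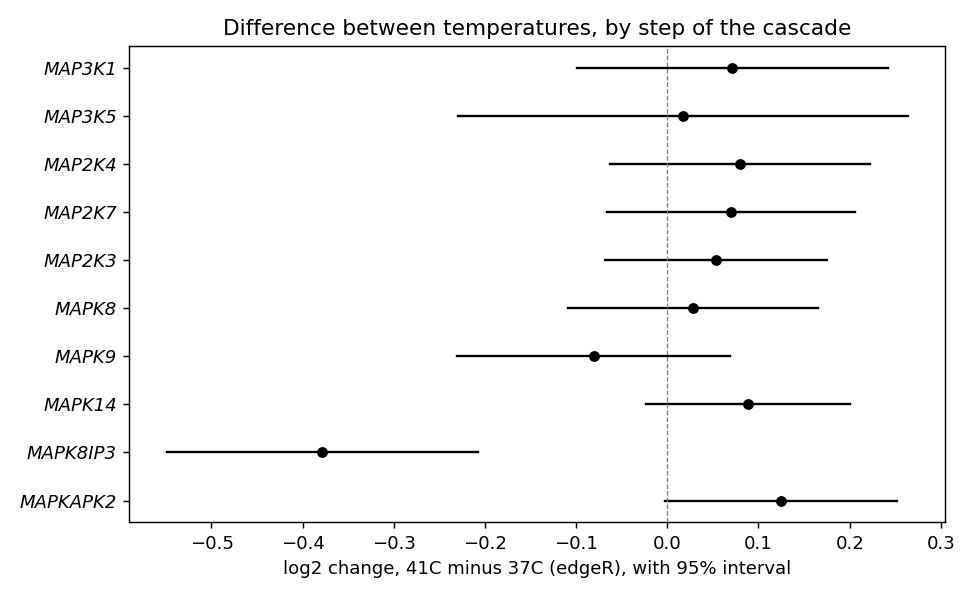
log2 change at 41C minus 37C of each gene (points) with its 95% interval (lines) from the edgeR fit over all genes, from the upper kinases down to MAPKAPK2. The interval of MAPK8IP3 runs from -0.55 to -0.21, and those of the 9 kinases lie between -0.23 and 0.26. The genes were chosen with these values known, so the intervals are a description and no test.

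Around these 10 genes, 113 others of the pathway were listed by role in 10 lists, and 111 were tested. Of the 111, 2 rose and 0 fell, JUN and FLNA, beside 1.09% of all tested genes past the threshold. The median log2 change was 0.06 and 78 were positive, beside 50.9% positive in all genes. JUN, the AP-1 subunit phosphorylated by JNK, had 49.4, 50.3 and 50.8 CPM at 41C, against 42.0, 35.2 and 42.5 CPM at 37C. The groups did not overlap, and JUN rose 1.26-fold (log2 change 0.33 ± 0.07, edgeR adjusted p = 0.0401). That call was lost without 41C replicate 1, 2 or 3 or 37C replicate 2 (edgeR adjusted p = 0.157, 0.230, 0.149 and 0.300), and in limma on log2(FPKM + 1) and log2(FPKM + 0.1) (adjusted p = 0.133 and 0.120). DESeq2 gave an adjusted p for 38 of the 111 genes, JUN not among these. FLNA, an actin crosslinker that also binds kinases of the JNK branch, had 3613, 3731 and 3599 CPM at 41C, against 2915, 2714 and 3106 CPM at 37C. It rose 1.25-fold (log2 change 0.33 ± 0.05, edgeR adjusted p = 0.00408), and no longer passed without 41C replicate 2 or 37C replicate 2 (edgeR adjusted p = 0.0910 and 0.0843), or in limma on log2(FPKM + 1) (adjusted p = 0.0561).

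In the other 8 lists 0 of 80 tested genes passed in edgeR, and DESeq2 called 1, PAK2. At an unadjusted p under 0.05 in edgeR stood 12 of the 80, beside 1652 of all 12056 tested genes. Of 16 other MAP2K and MAP3K genes, the smallest p-values were those of MAP3K9 and MAP3K2 (log2 changes 0.18 ± 0.06 and 0.20 ± 0.09, edgeR adjusted p = 0.154 and 0.328). MAP3K9 passed without 37C replicate 3 (0.21, edgeR adjusted p = 0.0205). MAP3K2 passed without 37C replicate 1 (0.30, edgeR adjusted p = 0.0362) and with the GC correction (0.22, edgeR adjusted p = 0.0164), and was 0.10 without 37C replicate 3. MAP4K4 and MINK1, kinases above the MAP3K step, stood at 0.12 ± 0.05 and 0.09 ± 0.04 on the same scale (edgeR adjusted p = 0.257 and 0.366). Among 14 phosphatases that act on MAP kinases, DUSP10, which acts on JNK and p38, had 93.9, 92.7 and 94.8 CPM at 41C, against 85.4, 80.2 and 82.2 CPM at 37C. The groups did not overlap, and the log2 change of 0.18 ± 0.05 missed the threshold (edgeR adjusted p = 0.102). It passed without 37C replicate 3 and with a correction for GC content (edgeR adjusted p = 0.0276 and 0.0283). DUSP9, which acts mainly on ERK, had 9.35 ± 0.318 CPM at 41C and 11.7 ± 0.916 CPM at 37C (log2 change -0.32 ± 0.11, edgeR adjusted p = 0.181).

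Below p38, 0 of 6 other kinases passed in edgeR (0 at an unadjusted p under 0.05, beside 1652 of all 12056 tested genes). Their log2 changes ran from -0.07 to 0.08. MKNK1, which had the lowest of these values and is a kinase of the translation factor eIF4E, stood at -0.07 ± 0.06 on the log2 scale (edgeR adjusted p = 0.639). Among transcripts and factors of AU-rich mRNA decay, ZFP36L1 stood at 0.13 ± 0.05 and the cytokine CXCL8 at -0.31 ± 0.13 (edgeR adjusted p = 0.205 and 0.308). CXCL8 had 10.5, 10.3 and 11.6 CPM at 41C, against 14.7, 14.9 and 10.4 CPM at 37C, so that its 37C replicate 3 lay within the 41C range. Without that library CXCL8 and ZFP36L1 both passed (log2 changes -0.45 and 0.14, edgeR adjusted p = 0.00835 and 0.0470). Of the regulators at the top of the cascade, the kinase PAK2 had 304.8, 303.6 and 300.9 CPM at 41C, against 276.4, 266.2 and 273.9 CPM at 37C, without overlap (log2 change 0.16 ± 0.04, edgeR adjusted p = 0.0826). It passed without 37C replicate 3 and with the GC correction (edgeR adjusted p = 0.0136 and 0.0462). TXN, the thioredoxin that binds MAP3K5, stood at -0.07 ± 0.05 (edgeR adjusted p = 0.521), and at 0.0377 after correction for gene length.

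**Figure D4:**
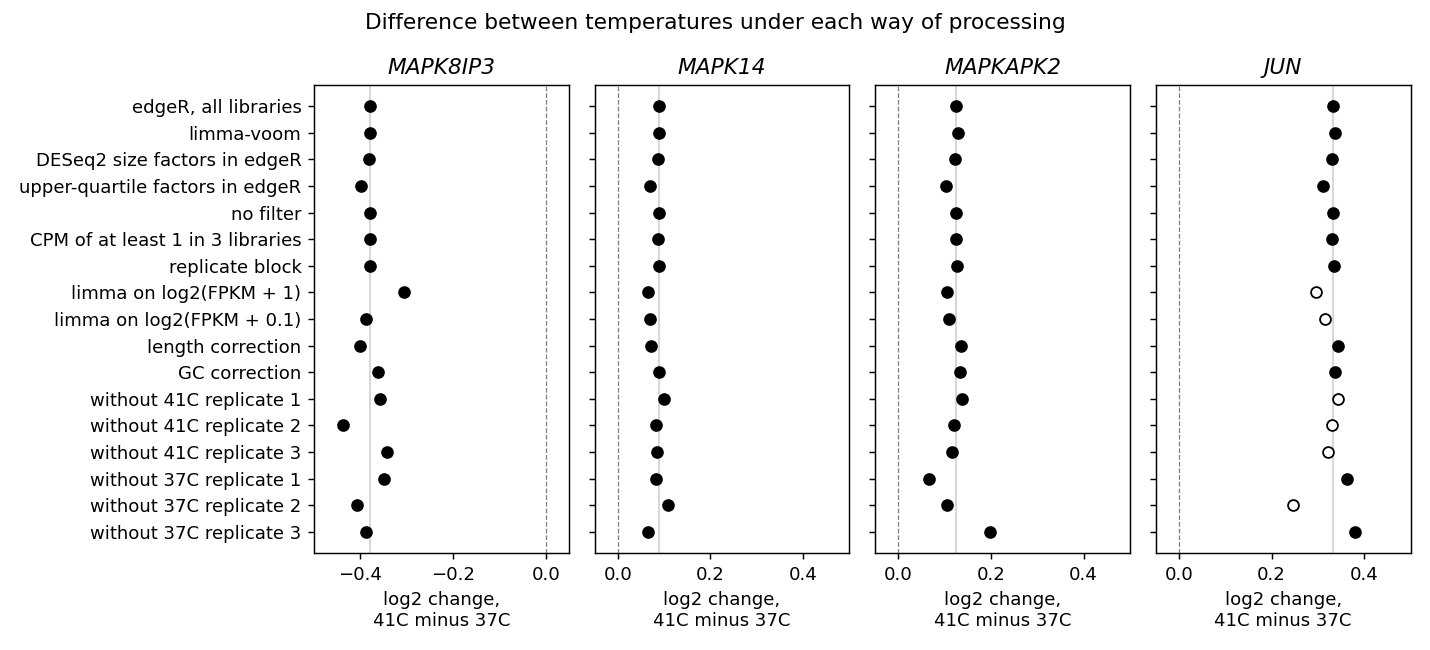
log2 change at 41C minus 37C of MAPK8IP3, MAPK14, MAPKAPK2 and JUN under each way of processing with an adjusted p for all 4 genes; for JUN, filled points passed the adjusted p of 0.05 and open points did not. MAPK8IP3 stays between -0.44 and -0.31, and MAPKAPK2 lies between 0.07 and 0.20.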

How the data were processed

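Total RNA of 6 samples was turned into libraries by the TruSeq Stranded mRNA kit, per the labels' protocols. Per the submitters' processing notes, Trimmomatic 0.36, HISAT2 and the build GRCh38.p13 were used. The counter, the annotation and any use of strand are not stated there or in the labels. The authors deposited whole-number counts per gene symbol, not normalized, and FPKM. Each FPKM followed from its own count, a gene length shared by all libraries and the library total, within 0.01% for 100% of nonzero values, so the deposited FPKM is no independent measurement.

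The test of the counts was that of edgeR 4.0.16, run in R 4.3.3 (filterByExpr, TMM factors, robust quasi-likelihood fit, two-sided) over 12056 genes, with Benjamini-Hochberg adjustment. CPM were scaled by TMM factors. With 3 libraries against 3, an exact two-sided permutation test of 1 gene cannot go below p = 0.1. Intervals of folds are 95% intervals from the same fit. Genes, lists and alternatives were chosen with earlier results of these data known. The genes named are the 10 members, their isoforms, and in each list those past the threshold or the 2 with the smallest p-value. Alternatives used DESeq2 1.42.0 and limma 3.58.1, with splines of 4 degrees of freedom for length and GC content (GENCODE release 29, 97.3% of symbols).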

Additional observations from a re-analysis of the deposited data

How the results depend on the processing

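Directions of MAPK8IP3, JUN, FLNA and 8 of the 9 kinases held in every alternative that gave the gene an adjusted p, 16 or 17 per gene. MAP3K5 changed sign. In MAPK8IP3, MAPK14, JUN and FLNA the groups did not overlap in CPM, so leaving out 1 library could hardly turn their sign. The sizes of the kinase values moved: with 1 library left out the log2 change ran from 0.01 to 0.12 in MAP3K1, -0.04 to 0.11 in MAP3K5, 0.04 to 0.11 in MAP2K4, 0.03 to 0.11 in MAP2K7, 0.02 to 0.11 in MAP2K3, 0.01 to 0.05 in MAPK8, -0.12 to -0.03 in MAPK9, 0.07 to 0.11 in MAPK14 and 0.07 to 0.20 in MAPKAPK2. The 131 genes past the threshold (99 higher, 32 lower) became 217 with DESeq2, 284 with no filter, 436 with the GC correction, and 11 and 40 with limma on log2(FPKM + 1) and log2(FPKM + 0.1), and ranged from 5 (without 41C replicate 2) to 805 (without 37C replicate 3) when 1 library was left out (36 and 41 without 41C replicate 1 and 3, 223 and 17 without 37C replicate 1 and 2); the cause was not tested. Upper-quartile scaling gave 57 higher and 53 lower. Of the 10 members, 1 passed in the main test, 0 with DESeq2 and 0 with limma on either FPKM scale. DESeq2 gave an adjusted p for 3 of them, MAPK8IP3 not among these. At an unadjusted p under 0.05 stood 1 member in DESeq2, beside 1198 of all 12056 genes. In limma on log2(FPKM + 1) and log2(FPKM + 0.1) 1 member stood there in each, beside 1726 and 1716 of all 12056 genes. With 1 library left out, 0 (without any 41C replicate or 37C replicate 2) to 2 (without 37C replicate 3) members passed. Of the other pathway genes, 2 became 5 with the GC correction, 0 with limma on log2(FPKM + 1) and 1 with log2(FPKM + 0.1). In limma on log2(FPKM + 1) 12 of them had an unadjusted p under 0.05, beside 1726 of all 12056 genes. With 1 library left out their count ran from 0 (without 41C replicate 2 or 37C replicate 2) to 9 (without 37C replicate 3). TXN reversed to 0.0377 with the length correction.

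With the replicate number as a block the counts were 438 genes, 1 member and 4 other pathway genes (DUSP10, FLNA, JUN and PAK2). Deviations of same-numbered libraries correlated at 0.08, -0.02 and 0.08. Replicates 1 and 3 correlated best with their own number, and replicate 2 did not. With 3 libraries per group these values cannot show whether the numbers pair the samples. Depth limits MAP3K5 most among the members; intervals from few counts are wide.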

Other observations

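The ERK branches, listed for comparison, showed no gene past the threshold among 13 tested in edgeR. At an unadjusted p under 0.05 in edgeR stood 0 of the 13, beside 1652 of all 12056 tested genes. The median log2 change was 0.05 and 10 were positive. For KSR1, a scaffold of this branch, the log2 difference was -0.27 ± 0.15, with an adjusted p of 0.445 in edgeR. Of the listed pathway genes, 2 had too few counts to be tested. The kinase MAP4K1 had 8, 3 and 7 counts at 41C, against 17, 15 and 8 counts at 37C, and the cytokine TNF had 3, 22 and 11 counts at 41C, against 9, 6 and 6 counts at 37C.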
